A study of Mus musculus with 4 samples.

Results

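The genes described here are 44 genes of the cell cycle and mitosis, out of 17117 genes in the count table, in alveolar epithelial cells of the mouse lung. They were listed by name from their known roles, with earlier results of these data known. The list holds 23 genes of G2 phase and mitosis (G2/M genes) and 12 genes of DNA replication (S-phase genes). It adds 6 broadly expressed genes of chromatin and microtubules that dividing cells make more of. The rest are the 2 G1 cyclins Ccnd1 and Ccnd2 and the long noncoding RNA gene Lockd. All 44 were found in the table.

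The study asked how AT2 (alveolar type II) cells, which make surfactant and renew the epithelium of the alveoli, respond to pneumonectomy (PNX, removal of part of the lung, after which the remaining lung grows) with and without Cdc42, a small GTPase of cell shape and polarity. Control mice carried Sftpc-CreER, Cdc42flox/+ and Rosa26-mTmG, and Cdc42 AT2 null mice carried Sftpc-CreER, Cdc42flox/- and Rosa26-mTmG. All mice received 4 doses of tamoxifen, which activates Cre in cells that express Sftpc, so the controls also carried Cre, the reporter and 1 floxed allele. GFP+ cells were sorted and sequenced with the 10x Genomics 3′ protocol from control and null lungs, each after sham surgery and at day 21 after PNX, with 1 library for each combination. Each library carries the label postnatal day 80, without saying whether this is the day of surgery or of collection. The number of mice behind a library is not stated in the labels. With 1 library per group no difference between groups had a replicate check and no test was possible. Every interval below is an exact 95% interval that covers counting error only.

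A cell was taken as alveolar when Sftpc made up at least 2% of its unique molecular identifiers (UMIs, each the count of 1 captured RNA molecule) or it had at least 1 UMI of Cldn4, a tight-junction gene of the transitional state between AT2 and AT1 cells, with Ptprc, Pecam1 and Col1a2 at 0. The gate kept 1669 cells of control sham and 1972 of control PNX, with 8145379 and 9977520 UMIs, and 2630 of null sham and 1858 of null PNX, with 14528959 and 20914459 UMIs. Null PNX cells were deeper, at a median depth of 10595 UMIs, where the other libraries had 4763 to 5129. Cldn4 was detected in 0 and 3 of these cells in the control libraries and in 69 and 998 in the null libraries, so the gate took in a transitional population that was large in null PNX. All 10 AT2 markers were detected in every library, and their summed level ranged from 123442 CPM in null PNX to 208237 in control sham (CPM, UMIs of a gene per 1000000 UMIs summed over the alveolar cells of the library). Of the markers of other cells, summed T or NK genes (4 of 4 in the table detected in each library) lay at 5.81 to 14.9 CPM, B cell genes (2 to 3 of 4) at 19.8 to 29.5, macrophage genes (4 to 6 of 6) at 0.902 to 37.5, neutrophil genes (4 to 5 of 5) at 55.3 to 158 and club cell genes (4 of 4) at 1064 to 5541. Their part in the levels below was not tested. Cdc42 transcripts were not used to check the deletion, because 3′ tags need not cover the floxed exon, which the labels leave unnamed. Across all pairs of libraries 54 cell barcodes occurred in more than 1 library, with 2 to 14 per pair.

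Cells copy their DNA in S phase and separate the copies in mitosis, and each step has its own set of genes. Cyclins switch on the kinases that drive each step, D-type cyclins in G1 and cyclins A and B towards mitosis, and inhibitors such as p21 (Cdkn1a) hold the kinases back. The S-phase genes build nucleotides and the replication helicase, while the G2/M genes build the spindle, the kinetochore and the machinery that destroys mitotic proteins. AT2 cells divide rarely in the resting adult lung and are known to proliferate after injury or loss of lung tissue.

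The promoters of these genes are printed because the G2/M and S-phase lists are also set apart by known control elements. Late cell cycle promoters typically combine CCAAT boxes, bound by NF-Y, with a cell cycle genes homology region (CHR), bound by the MuvB complexes, and S-phase promoters carry E2F sites. RefSeq promoter windows on GRCm38.p6, from 250 bases before to 50 bases after the start, were matched for 35 of the 44 genes and gave 36 windows, since Mcm7 had 2. Ccna2, Tpx2, Pbk, Aurkb, Hist1h2ap, Stmn1, H2afx, Ccnd1 and Ccnd2 had no entry. In the sequences, read 5′ to 3′ on the strand of the gene, capitals mark CCAAT (or ATTGG on the other strand), the CHR letters TTTGAA (or TTCAAA) and the E2F letters TTCCCGC (or GCGGGAA) and TTGGCGC (or GCGCCAA). The letters ATTGG and TTGGCGC can overlap, which occurred once each in Ccnb1, Mcm7 and H2afz. The first group shows Cdk1, Ccnb2 and Cdc20 as G2/M genes with high null PNX levels, at chr10:69352863-69353162, chr9:70421505-70421804 and chr4:118437294-118437593, each on the minus strand.
Cdk1: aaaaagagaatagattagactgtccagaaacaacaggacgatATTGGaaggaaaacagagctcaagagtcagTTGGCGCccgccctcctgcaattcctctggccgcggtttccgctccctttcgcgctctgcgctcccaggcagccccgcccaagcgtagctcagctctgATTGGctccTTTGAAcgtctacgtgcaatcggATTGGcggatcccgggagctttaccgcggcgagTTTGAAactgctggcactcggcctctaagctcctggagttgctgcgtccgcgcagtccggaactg
Ccnb2: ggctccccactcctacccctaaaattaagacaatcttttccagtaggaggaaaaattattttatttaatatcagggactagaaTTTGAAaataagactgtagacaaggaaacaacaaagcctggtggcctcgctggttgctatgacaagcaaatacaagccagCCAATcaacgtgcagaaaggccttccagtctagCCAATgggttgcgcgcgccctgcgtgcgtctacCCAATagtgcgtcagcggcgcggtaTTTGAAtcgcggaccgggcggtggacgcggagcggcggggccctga
Cdc20: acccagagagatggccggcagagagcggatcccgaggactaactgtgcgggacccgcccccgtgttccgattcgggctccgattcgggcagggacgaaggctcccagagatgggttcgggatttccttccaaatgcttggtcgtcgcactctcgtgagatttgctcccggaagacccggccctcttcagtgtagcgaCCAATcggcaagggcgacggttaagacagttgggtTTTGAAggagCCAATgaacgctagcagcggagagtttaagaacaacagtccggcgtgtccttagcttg

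The next group shows S-phase genes, 2810417H13Rik at chr9:65890073-65890372 and Mcm5 at chr8:75109259-75109558, both on the plus strand, and Pttg1 at chr11:43425932-43426231 on the minus strand, the G2/M gene whose levels departed from the rest.
2810417H13Rik: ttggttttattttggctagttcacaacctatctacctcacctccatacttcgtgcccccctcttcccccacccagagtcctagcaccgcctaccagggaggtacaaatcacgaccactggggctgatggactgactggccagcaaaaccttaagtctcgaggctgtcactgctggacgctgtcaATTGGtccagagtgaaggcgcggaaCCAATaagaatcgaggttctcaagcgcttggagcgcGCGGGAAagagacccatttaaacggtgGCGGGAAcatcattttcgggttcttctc
Mcm5: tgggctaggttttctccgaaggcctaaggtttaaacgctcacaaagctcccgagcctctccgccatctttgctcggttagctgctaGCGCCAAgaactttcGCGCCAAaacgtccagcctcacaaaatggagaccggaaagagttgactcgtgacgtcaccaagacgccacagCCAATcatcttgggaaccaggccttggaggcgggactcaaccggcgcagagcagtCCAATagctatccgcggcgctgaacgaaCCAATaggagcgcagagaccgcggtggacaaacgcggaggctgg
Pttg1: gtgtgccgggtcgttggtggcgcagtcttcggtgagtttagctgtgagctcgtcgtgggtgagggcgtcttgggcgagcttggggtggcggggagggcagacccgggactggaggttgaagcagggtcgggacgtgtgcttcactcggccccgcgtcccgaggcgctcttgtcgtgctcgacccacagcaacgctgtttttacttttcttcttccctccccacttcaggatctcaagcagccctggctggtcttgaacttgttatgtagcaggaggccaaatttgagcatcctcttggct

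Of the 19 G2/M promoters 16 held a CCAAT box, and 15 held at least 2, against 37.4% and 11.7% of all 32851 mouse promoter windows of the same length. The CHR letters were present in 14 of the 19 G2/M promoters, against 1 of 12 S-phase promoters and 17.9% of all promoters. The same 14 also held a CCAAT box, a combination found in 6.95% of all promoters. E2F letters showed the opposite split, with 7 of 12 S-phase promoters and 3 of 19 G2/M promoters, against 6.81% of all. Without matches that overlap a CCAAT box these counts were 7 and 2, against 6.42%. Mcm3 held 3 such matches, 2 of them overlapping each other, and Mcm5, Mcm6 and 2810417H13Rik held 2 each. Birc5, Nusap1 and Pttg1 among the G2/M genes, Tyms and Tk1 among the S-phase genes, and Tuba1b held none of these letters in the window. The Pttg1 window lies wholly inside the gene as annotated in GENCODE M21 (chr11:43420250-43426251, minus strand). The bases before that annotated start were not scanned. These are counts of letters in a window and not measurements of binding.

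Each of the 4 library comparisons gave a different share of members at least 2-fold apart, counted among genes with at least 20 UMIs over the pair of libraries. In null PNX over null sham all 44 members were measured, of which 39 were higher, 1 was lower and 4 were neither. Of all 12722 measured genes 15.7% were higher and 6.63% lower. For members with 5 or fewer null sham UMIs, such as Pbk with 0 and Cdk1 with 2, the call as higher was fixed by the minimum. All of these are G2/M genes and are named below. The minimum was the same for all genes. For null PNX over control PNX 34 of 44 were higher and 1 lower, against 21.3% and 7.87% of all genes. Control PNX over control sham had 38 measured members, of which 10 were higher and 1 lower, against 3.44% and 2.3% of all genes. Null sham over control sham had 31 measured members, of which 1 was higher and 7 were lower, against 7.2% and 3.1% of all genes. The median log2 ratio of the members was 3.37 for null PNX over null sham and 1.54 for null PNX over control PNX, where that of all measured genes was 0.24 and 0.29. It was 0.69 in control PNX over control sham and -0.36 in null sham over control sham, where that of all measured genes was 0.14 and 0.17. The control PNX count depended on the settings. It was 5 with a minimum of 50 UMIs, which changed no ratio and left out Ccnb2, Ccna2, Cenpa, Nusap1 and Cdca3. When all cells of the library were summed without the gate it was 3. Numbers of measured members and shares of all genes were not computed under these settings. Null PNX over null sham and null PNX over control PNX share the null PNX library, and the comparisons on control sham share that library, so they are not independent.

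**Figure D1:**
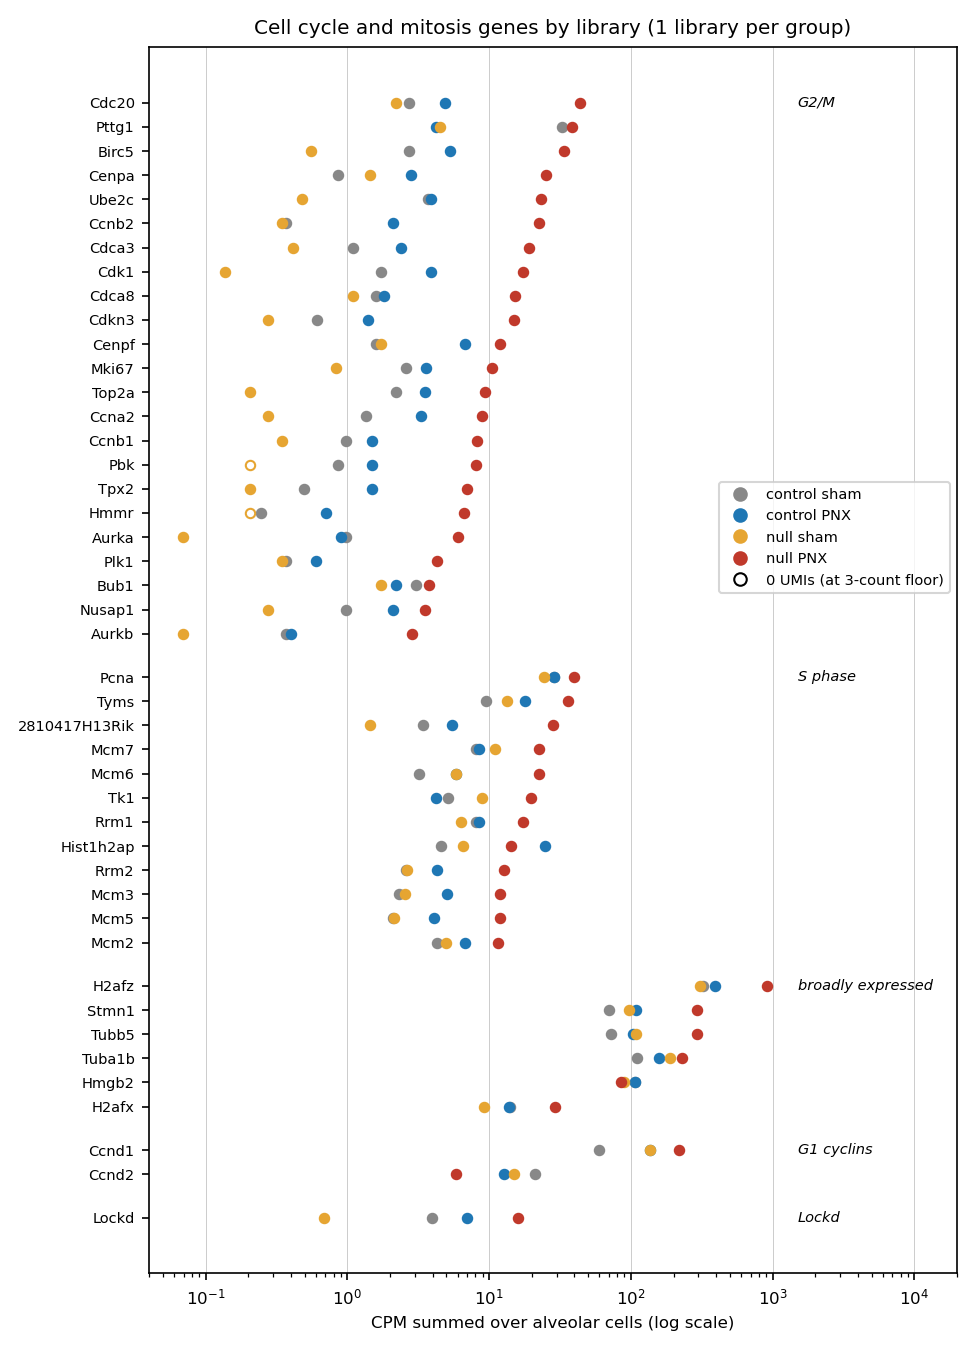
Level of each of the 44 genes in the 4 libraries, grouped by role, as CPM summed over alveolar cells on a log axis, with 1 point per library and open points at the 3-count floor where a library had 0 UMIs. Null PNX is the rightmost point for every G2/M gene, while Hmgb2 and Ccnd2 are lowest in null PNX and Pttg1 is high in both control sham and null PNX.

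Among the G2/M genes null PNX had the highest level of all 4 libraries for all 23, and all 23 were at least 2-fold above null sham, with a median log2 ratio of 5.02. The order of the other 3 libraries was less uniform: 20 of 23 ratios of control PNX over control sham lay above 1, and of 22 ratios of null sham over control sham that could be formed those of Cenpf and Cenpa lay above 1 and the rest below it. Low counts limit these orders. Over both control libraries 6 of the 23 genes had fewer than 20 UMIs, and over both sham libraries 13 did. Top2a, Cdk1, Ccnb1, Ccnb2, Ccna2, Tpx2, Nusap1, Pbk, Hmmr, Cdkn3, Aurka, Aurkb and Plk1 had 5 or fewer null sham UMIs. For these genes the minimum of 20 UMIs fixed the call as higher in null PNX over null sham. The count of 23 is therefore not a result for them.

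Cdk1, the kinase that drives entry into mitosis, had 1.72 CPM in control sham against 3.91 in control PNX, with 0.138 in null sham and 17.4 in null PNX. The 2 UMIs in null sham against 363 in null PNX gave a ratio of 126 with a wide interval (34.7–1045). Ccnb2, a B-type cyclin that activates Cdk1, had 0.368 CPM in control sham against 2.105 in control PNX, with 0.344 in null sham and 22.5 in null PNX. It was 65.4-fold higher in null PNX than in null sham (27.8–202), and its 21 UMIs in control PNX against 3 in control sham gave 5.71 (1.71–29.9). Both genes were lowest in the sham libraries, which did not differ beyond counting error for Ccnb2 (0.934, 0.182–6.02).

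Mki67, the nuclear protein used to stain dividing cells, had 2.58 and 3.61 CPM in control lungs (sham, then PNX) and 0.826 and 10.5 CPM in null lungs. Top2a, the topoisomerase that untangles sister chromosomes, had 2.21, 3.51, 0.206 and 9.32 CPM in the same order. Both were lower in null sham than in control sham, at 0.320 (0.144–0.682) and 0.0934 (0.0176–0.320) of its level, the Top2a value resting on 3 null sham UMIs. The intervals of control PNX over control sham included 1 for both, at 1.40 (0.795–2.52) and 1.59 (0.875–2.98). Null PNX stood 12.7-fold (7.11–24.9) above null sham for Mki67 and 45.2-fold (15.2–221) for Top2a.

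Birc5, a subunit of the chromosomal passenger complex, had 2.70 CPM in control sham against 5.31 in control PNX, with 0.551 in null sham and 33.7 in null PNX. Ube2c, the ubiquitin-conjugating enzyme of the anaphase-promoting complex, had 3.68, 3.91, 0.482 and 23.1 CPM in that order. These genes were 61.1-fold (30.9–142) and 48.0-fold (23.1–120) higher in null PNX than in null sham, and lower in null sham than in control sham, at 0.204 (0.0785–0.475) and 0.131 (0.0485–0.304). In control PNX 1 cell held 51.3% of the Ube2c UMIs. Of the 22 control sham Birc5 UMIs 21 lay in 4 cells, each with at least 3 G2/M genes, and the 30 Ube2c UMIs lay in 9 cells. The intervals do not cover this clustering. In cells with under 3 G2/M genes Birc5 had 1 UMI in control sham and 7 in null sham, a ratio of 3.90 (0.501–176).

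Cdc20, the activator of the anaphase-promoting complex, had 2.70 and 4.91 CPM in control lungs (sham, then PNX) and 2.20 and 43.8 CPM in null lungs, the last from 917 UMIs. Unlike Birc5 and Ube2c it did not differ beyond counting error between the sham libraries (0.815, 0.459–1.47), while null PNX stood 19.9-fold (14.0–29.3) above null sham. Cdkn3, a phosphatase that acts on cyclin-dependent kinases, had 0.614, 1.40, 0.275 and 15.01 CPM and a null PNX over null sham ratio of 54.5 (21.1–201). Cdca3, a mitotic entry gene, had 1.10, 2.41, 0.413 and 19.1 CPM and a ratio of 46.2 (21.0–127). Aurka, the kinase of the spindle poles, had 0.982, 0.902, 0.0688 and 6.02 CPM, and its ratio of 87.5 rested on 1 null sham UMI (15.4–3484).

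Cenpf and Cenpa were at least 2-fold higher in control PNX than in control sham. Cenpf, a kinetochore protein, had 1.60 and 6.82 CPM in control lungs (sham, then PNX) and 1.72 and 11.9 CPM in null lungs, so that both PNX libraries stood above both sham libraries. Control PNX was 4.27-fold (2.34–8.43) above control sham and null PNX 6.89-fold (4.56–10.9) above null sham. Cenpa, the histone variant that marks centromeres, had 0.859, 2.81, 1.45 and 25.0 CPM, with ratios of 3.27 (1.39–8.86) and 17.3 (11.2–28.2). Tpx2, a spindle assembly factor, had 15 UMIs in control PNX against 4 in control sham (ratio 3.06, 0.975–12.7), and Hmmr, a spindle-associated protein, had 7 against 2 (2.86, 0.544–28.2). These counts were too low for a 2-fold call. In null PNX Tpx2 had 7.03 CPM and Hmmr 6.69 CPM, and Hmmr, at 0 UMIs in null sham, was at least 32.4-fold higher against the floor of 3 counts per library.

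The other 8 G2/M genes, Ccnb1, Ccna2, Nusap1, Cdca8, Pbk, Aurkb, Plk1 and Bub1, had 2.87 to 15.3 CPM in null PNX. Their null PNX over null sham ratios ran from 2.20 (1.38–3.59) for Bub1, a spindle checkpoint kinase, to 41.7 (7.20–1673) for Aurkb, the kinase of the chromosomal passenger complex, and Pbk, a mitotic kinase with 0 null sham UMIs, was at least 39.4-fold higher. Bub1 had the smallest spread over libraries of the G2/M genes, from 1.72 to 3.78 CPM, and its control PNX over control sham ratio was 0.718 (0.386–1.33). Of these 8 genes Ccna2, cyclin A2, at 2.45 (1.21–5.37), and Nusap1, a spindle protein, at 2.14 (0.912–5.59), were 2-fold higher in control PNX than in control sham.

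Pttg1, the securin that blocks the separation of sister chromosomes until anaphase, followed another order. It had 32.5 CPM in control sham (28.7–36.7) against 4.21 in control PNX (3.03–5.69), with 4.47 in null sham (3.45–5.70) and 38.5 in null PNX (35.9–41.2). Control sham and null PNX were both high, and control PNX and null sham were both low. Control PNX was at 0.129 (0.0911–0.180) and null sham at 0.138 (0.103–0.181) of the control sham level, while null PNX was 8.603-fold (6.68–11.3) above null sham.

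The Pttg1 UMIs lay in different cells in the libraries where it was high. In control sham it was detected in 225 cells, and the 1664 alveolar cells with fewer than 3 other G2/M genes had 32.0 CPM, nearly the level of the whole library. In null PNX such cells had 12.1 CPM, and 73.8% of the Pttg1 UMIs lay in cells with at least 3 other G2/M genes, which had 173 CPM. The same cells with few G2/M genes had 2.33 CPM in control PNX and 4.41 in null sham. Control sham also had the highest Pttg1 level in cells outside the alveolar gate. Lymphocytes (Ptprc and a T or B cell gene detected, Sftpc under 2%) had 121 and 45.1 CPM in control lungs (sham, then PNX) and 56.4 and 82.9 CPM in null lungs, and the remaining cells had 56.7, 21.4, 24.01 and 43.4 CPM. Control PNX was at 0.371 (0.128–0.885) of control sham in lymphocytes and at 0.377 (0.228–0.601) in the remaining cells, and null sham was at 0.465 (0.267–0.795) and 0.423 (0.302–0.591). The intervals of control sham and null PNX overlapped, at 85.9–167 and 58.7–114 CPM in lymphocytes and 45.0–70.6 and 36.8–50.9 in the remaining cells. The part of these other cells in the alveolar Pttg1 level was not tested.

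**Figure D2:**
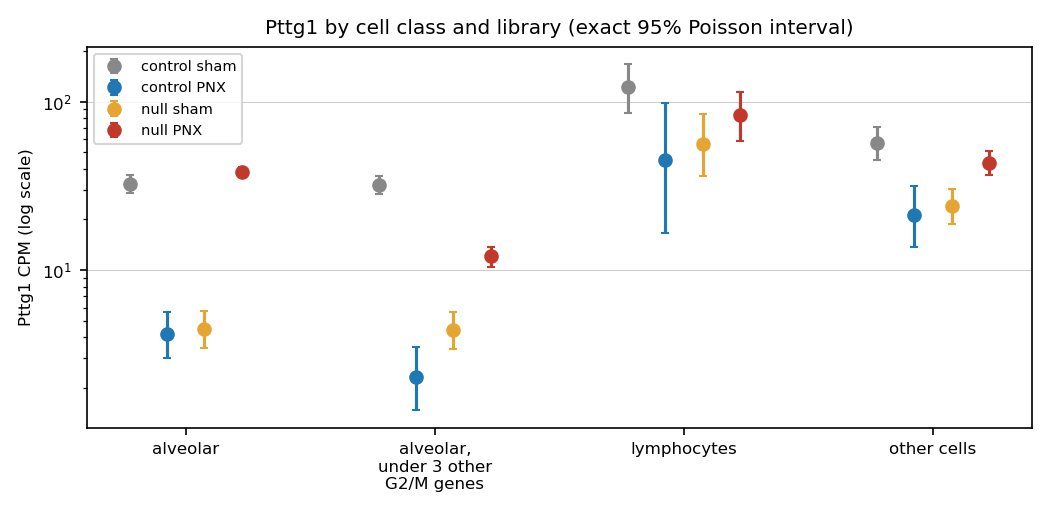
Pttg1 level in 4 classes of cells by library, as CPM on a log axis with exact 95% Poisson intervals. In alveolar cells with under 3 other G2/M genes control sham stands at 32.0 CPM and null PNX at 12.1. In lymphocytes and the remaining cells control sham is again the highest point, with an interval that overlaps that of null PNX.

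The G2/M sum was read with Pttg1, without it, and without Pttg1 and Cdc20, the G2/M genes with the highest null PNX levels. Summed over all 23 genes the G2/M level was 64.0 CPM in control sham (58.6–69.7) against 61.4 in control PNX (56.7–66.5), with 17.5 in null sham (15.4–19.8) and 345 in null PNX (337–353). Without Pttg1 the sum was 31.4, 57.2, 13.01 and 306 CPM in the same order, and without Pttg1 and Cdc20 it was 28.7, 52.3, 10.8 and 262 CPM. The ratio of control PNX over control sham turned from 0.961 (0.853–1.08) to 1.82 (1.57–2.12) without Pttg1, and was 1.82 (1.56–2.13) without both. The other directions were the same with both genes and without them: null PNX over null sham was 19.7 (17.4–22.4) and 24.3 (20.7–28.6), null sham over control sham 0.273 (0.234–0.318) and 0.376 (0.305–0.462), and null PNX over control PNX 5.61 (5.16–6.10) and 5.01 (4.58–5.49). Few cells carried the sums of the control libraries. Without both genes 366 of 522 control PNX UMIs lay in 15 cells and 137 of 234 control sham UMIs in 5 cells. In the other cells control PNX over control sham was 1.32 (1.02–1.72).

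In both comparisons of null PNX the S-phase sum differed less than the G2/M sum. It was 82.1 CPM in control sham (76.0–88.6) against 124 in control PNX (117–131), with 90.0 in null sham (85.2–95.04) and 248 in null PNX (241–255). Null PNX was 2.76-fold (2.59–2.93) above null sham and 2.00-fold (1.88–2.13) above control PNX, control PNX was 1.51-fold (1.38–1.66) above control sham, and the sham libraries did not differ beyond counting error (1.10, 0.998–1.20). In null PNX over null sham 11 of 12 genes were at least 2-fold higher, with a median log2 ratio of 1.43.

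Pcna, the sliding clamp of DNA polymerase, was the member that did not reach 2-fold, with 28.7 CPM in control sham against 28.8 in control PNX, with 24.3 in null sham and 39.6 in null PNX. The null PNX over null sham ratio was 1.63 (1.44–1.85). Tyms, which makes thymidylate, had 9.58, 17.8, 13.4 and 36.0 CPM and was 2.68-fold (2.29–3.16) higher in null PNX than in null sham. For Tyms control sham was lowest, and control PNX stood 1.86-fold (1.42–2.46) above it.

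2810417H13Rik, the PCNA-associated factor of replication forks, behaved more like a G2/M gene in its levels. It had 3.44 and 5.51 CPM in control lungs (sham, then PNX) and 1.45 and 28.1 CPM in null lungs, with null sham at 0.420 (0.227–0.768) of control sham and null PNX 19.4-fold (12.6–31.6) above null sham. The 5 helicase genes Mcm2, Mcm3, Mcm5, Mcm6 and Mcm7 had 2.07 to 5.58 times the null sham level in null PNX. Mcm6, for example, had 3.19, 5.81, 5.85 and 22.4 CPM. In control PNX over control sham Mcm3 was the helicase gene past 2-fold, at 2.15 (1.24–3.86). Rrm1 and Rrm2, the subunits of ribonucleotide reductase, were 2.72-fold (2.16–3.46) and 4.88-fold (3.47–7.05) higher in null PNX than in null sham, and Tk1, thymidine kinase, 2.20-fold (1.80–2.70).

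Hist1h2ap, a histone H2A gene of S phase, was highest in control PNX, with 24.9 CPM against 4.54 in control sham, 6.54 in null sham and 14.2 in null PNX. Of its 248 control PNX UMIs 42.7% lay in 1 cell. It belongs to a family of near-identical histone genes, so its counts are uncertain. Without it the S-phase sum of control PNX over control sham was 1.28 (1.16–1.42) and that of null PNX over null sham 2.80 (2.63–2.99).

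The ratio of G2/M to S-phase UMIs within a library does not depend on library size. It was 0.779 in control sham (0.693–0.875) against 0.495 in control PNX (0.448–0.545), with 0.194 in null sham (0.169–0.222) and 1.39 in null PNX (1.34–1.44). Without Pttg1 and Cdc20 it was 0.350, 0.421, 0.120 and 1.06. Null PNX was the library with most G2/M relative to S-phase UMIs and null sham the one with least, with or without these genes, while the order of the control libraries turned. Many S-phase UMIs lay in cells with under 3 G2/M genes, 1297 of 1308 in null sham and 2453 of 5189 in null PNX. The ratio is thus not a measure of the phases of dividing cells.

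**Figure D3:**
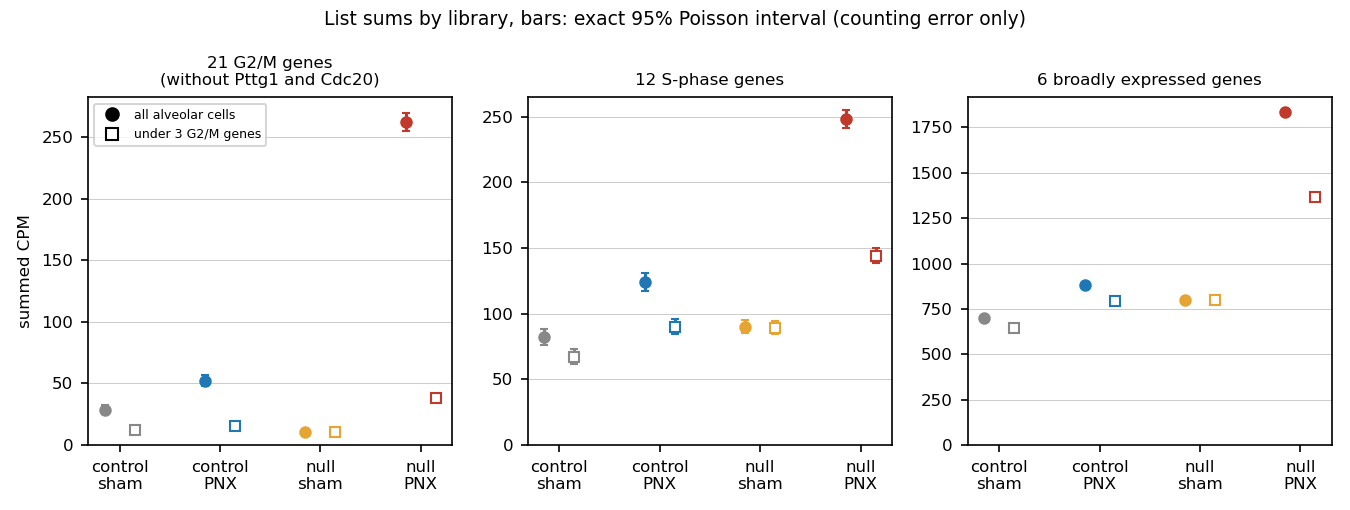
Summed CPM of the G2/M genes without Pttg1 and Cdc20, of the S-phase genes and of the broadly expressed genes by library, with exact 95% Poisson intervals, in all alveolar cells (filled) and in cells with under 3 G2/M genes (open). Null PNX is highest in each panel, and its G2/M point drops from 262 to 38.2 CPM once cells with 3 or more G2/M genes are left out.

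The 6 broadly expressed genes summed to 700 CPM in control sham against 882 in control PNX, with 802 in null sham and 1836 in null PNX, and 4 of them were at least 2-fold higher in null PNX than in null sham. H2afz, the histone variant H2A.Z, had 324 and 392.3 CPM in control lungs (sham, then PNX) and 307 and 906 CPM in null lungs. Stmn1, which destabilises microtubules, had 70.3, 109, 96.9 and 292 CPM, and Tubb5, a beta-tubulin, 72.1, 103, 109 and 292 CPM. All of these were highest in null PNX, at 2.95 (2.85–3.05), 3.01 (2.84–3.19) and 2.68 (2.53–2.83) times null sham. Outside the alveolar gate null PNX over null sham for H2afz was 1.66 (1.44–1.92) in lymphocytes and 2.07 (1.94–2.20) in the remaining cells. For Stmn1 it was 1.29 (0.938–1.79) and 2.11 (1.87–2.38), and for the G2/M gene Birc5 4.29 (1.97–10.7) and 2.46 (1.76–3.50). These rises were thus not particular to alveolar cells. H2afx, the histone variant of the DNA damage response, had 14.1, 13.8, 9.22 and 29.4 CPM and was 3.18-fold (2.64–3.87) higher in null PNX than in null sham. Tuba1b, an alpha-tubulin, had 111, 157, 190 and 231 CPM, and null PNX was 1.22-fold (1.16–1.28) above null sham.

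Hmgb2, a chromatin protein abundant in dividing cells, did not follow the others. It had 108 CPM in control sham against 107 in control PNX, with 89.5 in null sham and 85.0 in null PNX, and null PNX over null sham was 0.949 (0.883–1.02). Within null PNX the level of Hmgb2 was still 192 CPM in cells with at least 3 G2/M genes against 60.8 in the other cells. H2afz and Hmgb2 UMIs were also frequent in lymphocytes, where H2afz had 626 to 1143 CPM and Hmgb2 290 to 1052. For Hmgb2 null PNX over null sham was 0.479 (0.385–0.592) in lymphocytes and 0.665 (0.597–0.740) in the remaining cells.

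The G1 cyclins diverged. Ccnd1, cyclin D1, had 59.9 CPM in control sham against 137 in control PNX, with 137 in null sham and 218 in null PNX. Control sham was lowest, with control PNX and null sham each 2.29-fold above it (2.06–2.54 and 2.07–2.53), and null PNX was 1.59-fold (1.51–1.68) above null sham. Ccnd1 was the member at least 2-fold higher in null sham than in control sham. Ccnd2, cyclin D2, had 21.0, 12.7, 14.9 and 5.88 CPM, lowest in null PNX, at 0.394 (0.313–0.494) of null sham and 0.462 (0.358–0.597) of control PNX. Lymphocytes had 179 to 330 CPM of Ccnd2, above the alveolar level in each library.

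Lockd, a long noncoding RNA transcribed next to Cdkn1b, had 3.93 and 7.02 CPM in control lungs (sham, then PNX) and 0.688 and 16.0 CPM in null lungs. It was 23.3-fold (12.5–49.0) higher in null PNX than in null sham and at 0.175 (0.0768–0.365) of control sham in null sham, an order of libraries shared with Mki67, Top2a and 2810417H13Rik. Cdkn1b, which encodes the inhibitor p27, was at 0.581 (0.501–0.672) in null PNX over null sham.

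Other cell cycle genes from a list outside the 44, also chosen with earlier results of these data known, were counted in the same way. In null PNX over null sham 48 of 58 other G2/M genes and 20 of 31 measured other S-phase genes were at least 2-fold higher. In both lists 0 were lower, where 15.7% of all measured genes were higher and 6.63% lower. Here too the minimum could be met through null PNX alone. The higher counts in control PNX over control sham were 5 of 30 and 4 of 26 measured genes, with 0 lower. Of all genes 3.44% were higher and 2.3% lower there. In null sham over control sham 2 of 26 other G2/M genes were lower and 0 higher, and 0 of 24 other S-phase genes were either. Of all genes 3.1% were lower and 7.2% higher in that comparison. Among the largest null PNX over null sham ratios were those of Cep55, of the midbody, at 79.2 (13.9–3155) and Nuf2, of the kinetochore, at 50.02 (8.70–2003), each over 1 null sham UMI. Of 12 G1 regulators 3 were 2-fold higher and 0 lower in null PNX over null sham. Of 6 measured inhibitors of cyclin-dependent kinases 4 were higher and 0 lower. These lists are short, and the shares of all genes were 15.7% and 6.63%. Cdkn1a (p21) had 87.8, 129, 52.5 and 377 CPM and was 7.19-fold (6.67–7.75) higher in null PNX than in null sham, and Cdkn2b (p15) was 6.51-fold (4.87–8.87) higher. The smallest ratios belonged to Rbl2 at 0.534 (0.426–0.668), Cdkn1b, and Rb1 at 0.756 (0.611–0.935).

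Shares of cells were compared after each cell was thinned to 2000 UMIs, which left out, as shallower, 113 cells of control sham and 101 of control PNX, 139 of null sham and 0 of null PNX. A UMI of at least 3 of the 23 G2/M genes was found in 3 of 1556 control sham cells (0.193%, 0.0398–0.562), 8 of 1871 control PNX cells (0.428%, 0.185–0.841), 0 of 2491 null sham cells, which allows a share of up to 0.120% (3 counts of the total), and 99 of 1858 null PNX cells (5.33%, 4.35–6.45). Without thinning the counts were 5, 15, 1 and 262 cells, the last being 14.1% of null PNX. The intervals of the control libraries overlapped, and null PNX lay above all others. Cells with at least 1 G2/M gene were 8.48%, 4.49%, 3.09% and 20.3% in the same order, so control sham was above control PNX there but not at 3 genes. Without Pttg1 these shares were 2.89%, 4.22%, 2.49% and 18.2%, and control sham was below control PNX.

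Lymphocytes of the same sort, which include dividing cells of their own, gave shares with at least 3 G2/M genes of 4 of 70 in control sham, 2 of 32 in control PNX, 2 of 99 in null sham and 2 of 90 in null PNX. Their median depths, 2873, 3027, 2887.5 and 3568 UMIs, were below those of alveolar cells. In null PNX the alveolar share (5.33%) was above that of lymphocytes (2.22%, 0.270–7.80) but within its interval. In the other libraries the alveolar share was below the lymphocyte share. For single genes, Birc5 was detected in 4.40% of thinned null PNX alveolar cells against 0.106% to 0.453% in the other libraries and 1.65% to 3.59% of lymphocytes. Thinned Ccnd1 detection was 10.5%, 22.9%, 22.4% and 32.1% of alveolar cells and 1.91% to 7.67% of lymphocytes.

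**Figure D4:**
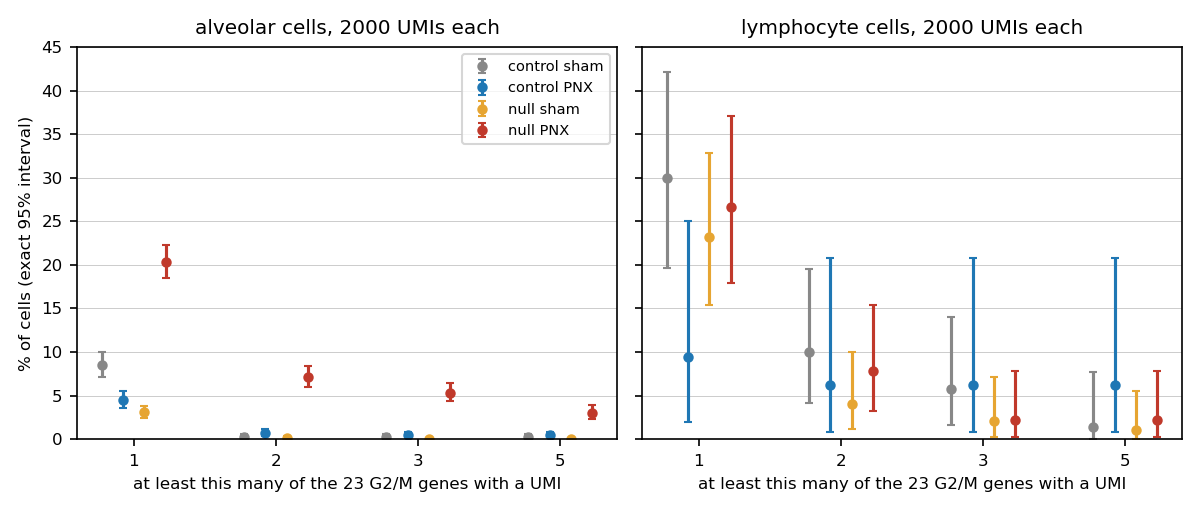
Percent of alveolar cells (left) and lymphocytes (right) with a UMI of at least 1, 2, 3 or 5 of the 23 G2/M genes after thinning to 2000 UMIs per cell, with exact 95% binomial intervals. Among alveolar cells null PNX lies highest at every threshold (5.33% at 3 genes), and lymphocytes of all libraries have wide intervals.

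The G2/M UMIs of null PNX lay in few cells. The 262 unthinned cells with at least 3 G2/M genes had 18.5% of all alveolar UMIs of null PNX and held 86.8% of its G2/M UMIs, a share raised by their selection on these genes. They also held 52.7% of the S-phase UMIs (51.4–54.1) and 39.3% of those of the broadly expressed genes (38.8–39.8), which the selection did not use. For each G2/M gene the share in cells with at least 3 other G2/M genes ran from 68.5% for Cenpf to 95.9% for Ccnb1. Among S-phase genes the share was 88.4% for 2810417H13Rik, 84.8% for Hist1h2ap and 83.5% for Rrm2, and 34.8% to 61.4% for the other 9. Lockd had 77.01% of its UMIs in these cells. Ccnd1 and Ccnd2, with 16.2% and 10.6%, were below the 18.5% of all UMIs.

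**Figure D5:**
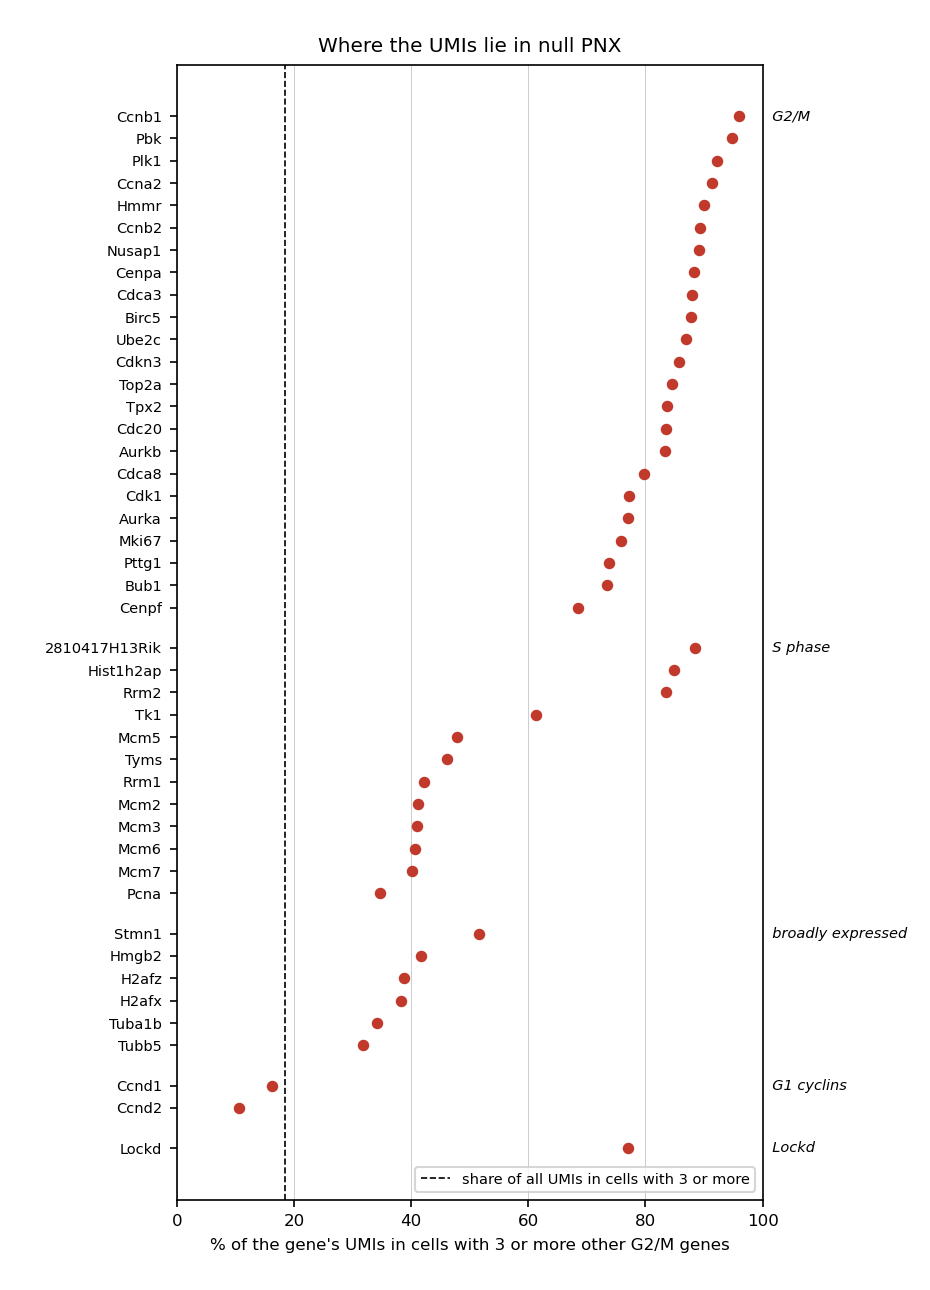
Percent of the UMIs of each gene in null PNX that lay in cells with at least 3 other G2/M genes, by role, with the share of all UMIs in cells with at least 3 G2/M genes as a dashed line at 18.5%. G2/M genes lie at 68.5% to 95.9%, the broadly expressed genes between 31.9% and 51.6%, and the G1 cyclins left of the line.

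In null PNX detection of G2/M genes overlapped within cells. Of the 241 null PNX cells with a Birc5 UMI 48.5% also had a UMI of Mki67, Top2a or Cdk1, against 10.3% of the cells without Birc5. For Plk1, a mitotic kinase, the share was 72.9% of 48 cells, for Cdc20 40.0% of 250 cells and for Pttg1 33.5% of 322 cells. Of the 20 G2/M genes compared in this way Cdc20 and Pttg1 had the lowest shares. In null sham the counts for Birc5, Plk1, Cdc20 and Pttg1 were 1 of 8, 0 of 5, 0 of 32 and 1 of 60 cells. Those of control sham were 3 of 5, 2 of 3, 2 of 21 and 5 of 225, and those of control PNX 11 of 16, 3 of 6, 6 of 41 and 5 of 28. Cells with a UMI are also deeper cells, and these shares were not thinned.

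In the control libraries the cells with at least 3 G2/M genes were few. The 15 in control PNX held 65.4% of its G2/M UMIs and the 5 in control sham 28.0%, or 58.5% without Pttg1 and Cdc20, while the 1 in null sham held 1.97%. Among thinned cells with at least 3 G2/M genes the ratio of G2/M to S-phase UMIs was 3.52 (3.32–3.74) in the 99 null PNX cells, 1.37 (1.17–1.62) in the 8 control PNX cells and 1.56 (1.19–2.05) in the 3 control sham cells. The choice of these cells by G2/M genes raises the ratio in each library. Without Hist1h2ap it was 4.15 (3.90–4.43), 4.01 (3.17–5.13) and 2.09 (1.55–2.84), so the distance between both PNX libraries was not seen without that gene. The 8 control PNX cells had 257 S-phase UMIs with Hist1h2ap and 88 without it. A single cell held much of the control PNX Hist1h2ap UMIs, as given above, and these ratios were not computed without that cell.

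Leaving out the cells with at least 3 G2/M genes lowers the G2/M sums by the choice of cells, so the values in the rest are a description. In alveolar cells with under 3 G2/M genes the G2/M sum without Pttg1 and Cdc20 was 11.98 and 15.8 CPM in control lungs (sham, then PNX) and 10.5 and 38.2 CPM in null lungs. Null PNX over null sham was 3.63 (3.04–4.36), control PNX over control sham 1.32 (1.02–1.72), and null sham over control sham 0.879 (0.677–1.15). The S-phase sum of null PNX over null sham was 1.61 (1.51–1.72) in such cells and that of the broadly expressed genes 1.71 (1.67–1.75). Null PNX cells were deeper, so a limit of 3 detected genes leaves out more of them. Then 23 in place of 39 members were 2-fold higher than in null sham, and the share of all genes in such cells was not computed.

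The alveolar gate gave every null PNX cell with at least 3 G2/M genes either Sftpc or Cldn4, so the levels of these genes are a description. These cells had 55860 CPM of Sftpc against 62099 in the other alveolar cells, 2982 of Krt8 against 2466, and 340 of Cldn4 against 415. Cdkn1a was lower in them, at 262 against 404 CPM, and so was Scgb1a1, a club cell gene, at 1294 against 6037. Their median depth was 13900.5 UMIs against 10200.5, and how many of them were doublets was not tested.

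The G2/M level of null PNX cells with Cldn4 depended on the gate. The G2/M sum of the 998 cells with a Cldn4 UMI was 0.733 (0.699–0.767) of that of the 860 cells without, and 20 of 23 genes had a ratio below 1. Plk1 was lowest, at 0.389 (0.244–0.610), and Cdc20 was at 0.506 (0.443–0.578), while Ccnb2 was higher with Cldn4, at 1.31 (1.08–1.59), and Aurka and Pttg1 were at 1.02 (0.705–1.48) and 1.03 (0.892–1.19). The S-phase sum did not differ beyond counting error (0.956, 0.904–1.01), and the broadly expressed genes were 1.22-fold (1.19–1.24) higher in cells with Cldn4, led by Tubb5 at 1.55 (1.47–1.64). Ccnd1 was at 1.53 (1.44–1.63) and Ccnd2 at 2.15 (1.41–3.36). The cells with Cldn4 were deeper, at a median of 11812.5 against 9628.5 UMIs, and detection of Cldn4 itself depends on depth.

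Of the 998 cells with Cldn4, 424 had under 2% Sftpc and entered by Cldn4 alone, while all 860 cells without Cldn4 had at least 2% Sftpc. Among cells with at least 2% Sftpc the G2/M sum of the 574 with Cldn4 was 388 CPM against 409 in those without, a ratio of 0.948 (0.903–0.995), and 17 of 23 genes had a ratio below 1. Plk1 was then at 0.535 (0.327–0.854) and Cdc20 at 0.721 (0.628–0.826), while Ccnb2 was at 1.85 (1.52–2.26), Cenpa at 1.34 (1.11–1.61) and Pttg1 at 1.27 (1.09–1.48). The S-phase sum was at 1.07 (1.01–1.14) and the broadly expressed genes at 1.23 (1.20–1.25). Tubb5 was at 1.22 (1.15–1.30), Ccnd1 at 1.20 (1.11–1.29) and Ccnd2 at 1.31 (0.782–2.19). This split was added after the values were seen.

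By cells, 46 of 998 with Cldn4 (4.61%, 3.39–6.10) and 53 of 860 without (6.16%, 4.65–7.98) had at least 3 G2/M genes after thinning, and these intervals overlapped. Among cells with at least 2% Sftpc the order turned, with 39 of 574 with Cldn4 (6.79%, 4.88–9.17) against the same 53 of 860, and the intervals again overlapped. The share was lower in cells with little Sftpc: 7 of the 424 cells under 2% Sftpc (1.65%, 0.666–3.37), all with Cldn4 by the gate, against 92 of 1434 cells with at least 2% (6.42%, 5.20–7.81). In cells with under 3 G2/M genes, Sftpc at any level, the G2/M sum was at 1.18 (1.04–1.35), the S-phase sum at 1.33 (1.23–1.45) and the broadly expressed genes at 1.40 (1.36–1.44) in cells with Cldn4 over cells without. With at least 2% Sftpc these were 1.13 (0.970–1.31), 1.30 (1.18–1.43) and 1.25 (1.21–1.29). In null sham 0 of 68 thinned cells with Cldn4 had at least 3 G2/M genes, which allows a share of up to 4.41% (3 counts of the total).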

How the data were processed

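The authors deposited 1 table of UMI counts per gene and cell for all 4 libraries, raw and whole-numbered, holding 10077 cells and 17117 genes, none detected in fewer than 3 cells. The shallowest cell had 691 UMIs in control sham and 2669 in null PNX, and no source used here states the minimum applied. The submitters' processing notes name Cell Ranger 2.1.0, Seurat 2.3.4 and the build mm10, with no role for any of them. Per the labels, the barcode ending gives the library.

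The deposited counts were summed over gated cells per library and scaled to CPM. Doublets were not called or removed. Ratios have exact binomial intervals, levels exact Poisson intervals and shares exact Clopper-Pearson intervals. UMIs are counted molecules, and these intervals leave out differences between mice and libraries. A ratio over 0 UMIs was taken against a floor of 3 counts and is printed as a lower bound. Ratio and thinning code was tested on simulated data. Python 3.11.15, numpy 2.4.6 and scipy 1.17.1 were used.

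Members named with all values were the 12 with most UMIs, the 8 with the largest null PNX over null sham ratio, the 6 with the largest control PNX over control sham ratio, those 2-fold lower in any comparison and examples of each role, where they had at least 20 UMIs over the 4 libraries. The other cell cycle genes named were the 3 with the largest and the 3 with the smallest null PNX over null sham ratio, with Cdkn1a and Cdkn2b added after their values were seen. 1 gene under this rule is not reported here. The members and lists were chosen with earlier results of these data known.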

Additional observations from a re-analysis of the deposited data

Results flagged for a closer look

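Pttg1 moved in opposite directions from sham to PNX in the control and null libraries. Control PNX was at 0.129 of control sham, and null PNX was 8.6-fold above null sham, with counting intervals on opposite sides of 1. With 1 library per group this difference was not tested. It was the 1 member of the 44 whose intervals lay so. Control sham also had the highest Pttg1 level in lymphocytes and in the remaining cells, where control PNX was at 0.371 and 0.377 of it. In both classes the counting intervals of control sham and null PNX overlapped.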

How the results depend on the processing

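No paired analysis was possible because each group was 1 library and the labels give no replicate numbers, and leaving out a library was not possible for the same reason. Of 152 values under alternative settings 92 stayed within counting error (or within 1.5 times for counts) and 60 moved. Ratios of the G2/M sum follow in this order: PNX over sham in control, PNX over sham in null, null over control in sham, and null over control in PNX. With all cells and no gate they were 0.823, 7.002, 0.531 and 4.52. Without Pttg1 and Cdc20 they were 1.82, 24.3, 0.376 and 5.01, and without Pttg1 alone, chosen after seeing the data, 1.82, 23.5, 0.414 and 5.35. Without cells with 3 or more G2/M genes, chosen after seeing the data, they were 0.463, 3.26, 0.370 and 2.60. In the last 3 of these comparisons the direction was the same under every alternative, and in the first the ratio was above 1 under the 2 alternatives without Pttg1 and below it under the other 7. Null PNX over null sham and over control PNX were 23.01 and 6.49 with Sftpc as the only gate, and 16.7 and 4.58 when scaled by the median ratio of all genes. Null PNX over control PNX was 4.85 with the 50 top genes out of the total and 6.47 without the top cell of each library.

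The S-phase ratios, in the same order, were 1.37, 2.34, 0.978 and 1.63 with median scaling, which turned the null sham over control sham ratio below 1 (as did the total without the 50 top genes, at 0.998), and 1.34, 1.61, 1.33 and 1.60 without cells with 3 or more G2/M genes. With no gate the last 3 were 2.18, 1.21 and 1.73. Without Hist1h2ap, chosen after seeing the data, the first and the last were 1.28 and 2.35. With the 50 top genes out of the total null PNX over null sham was 2.50 and over control PNX 1.73. Null PNX over control PNX was 2.13 with Sftpc as the only gate and 2.20 without the top cell.

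The G2/M to S-phase ratio without Pttg1 and Cdc20 was 0.350 in control sham and 0.421 in control PNX, with 0.120 in null sham and 1.06 in null PNX. With all 23 G2/M genes, but without cells with 3 or more of them, it was 0.689 and 0.238 in the control libraries (sham, then PNX) and 0.389 in null PNX. With no gate it was 0.979 in control sham and 0.429 in null sham, and with Sftpc as the only gate 1.51 in null PNX. Members at least 2-fold higher in control PNX over control sham were 3 with no gate and 5 at 50 UMIs. Without cells with 3 or more G2/M genes they were 23 for null PNX over null sham, 6 for null over control in sham and 21 for null over control in PNX, and with no gate 2 in null sham over control sham. For these counts neither the number of members measured nor the share of all genes was computed under the same setting. The share of cells with 3 or more G2/M genes was 0.883% in control PNX and 7.26% in null PNX at 4000 UMIs per cell, 0.227% in null sham with no gate, and in null PNX 14.1% without thinning, 3.01% at 5 genes and 4.14% without Pttg1 and Cdc20. The cause of these shifts was not tested. Low counts limit ratios between the sham libraries, where 13 G2/M genes had under 20 UMIs over both.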
